A study of Rattus norvegicus with 12 samples.

Results

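The carbonic anhydrase genes Car2, Car3, Car4, Car9, Car11, Car12 and Car13 were read in rat cardiac fibroblasts and in immortalized cells made from them. They are 7 of the 16 carbonic anhydrase genes in a count table of 32545 genes, found there by gene symbol. They were selected on their levels across the 4 groups of these same libraries, so those levels are given as a description and without a p-value. The study holds 12 RNA sequencing libraries in 4 groups of 3 biological replicates. GS_diff2 are GS cells given CMM medium plus EGM2 solution, a treatment labelled as cardiomyocyte and endothelial differentiation. GS_diff1 are GS cells given CMM medium alone, labelled as cardiomyocyte differentiation. GS are undifferentiated, immortalized cells, and RCF are the untreated wild-type rat cardiac fibroblasts they came from. GS, GS_diff1 and GS_diff2 all carry virally overexpressed Sall4 and Gata4. The labels' protocol names this virus for the RCF libraries too, while the design text calls RCF untreated. The sources used here do not give strain, age, time in each medium or whether GS cells are a clone, so effects of medium and of culture time cannot be told apart.

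Carbonic anhydrases are zinc enzymes that turn carbon dioxide and water into bicarbonate and a proton, and back. Family members differ mainly in where they work: in the cytosol, in mitochondria, at the outer face of the plasma membrane, or secreted. Membrane forms work with bicarbonate and lactate transporters in setting the pH on either side of the membrane, and a few related proteins have lost the zinc-binding residues and with them the activity. In the heart, they take part in carbon dioxide export and in the control of cell pH.

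Library totals ran from 16255682 to 23117864 counts, and levels are given as read counts scaled to library size (CPM). Sall4 counts ran between 1328 and 5363 in GS_diff2, GS_diff1 and GS libraries and were 0 in all of RCF. Sall4 averaged 69.6 CPM in GS_diff2, 225 in GS_diff1 and 246 in GS, and GS_diff2 lay below the other 2 without overlap. Its level therefore differed along with the medium. Gata4 averaged 285 CPM in GS_diff2, 495 in GS_diff1, 595 in GS and 206 in RCF. The 10 fibroblast markers summed to 48194.5 to 48914.9 CPM per library in GS_diff2, 65518.6 to 67088.8 in GS_diff1, 73276.1 to 74543.6 in GS and 48548.2 to 51545 in RCF, most of it Col1a1, Fn1 and Col3a1. Other markers differed widely. Dcn averaged 0.419 CPM in GS_diff2, 0.0703 in GS_diff1, 1.00 in GS and 32.8 in RCF. Tcf21 averaged 0 CPM in GS_diff2, 0.0831 in GS_diff1, 0.395 in GS and 18.5 in RCF, while Pdgfra averaged 463 in GS_diff2, 437 in GS_diff1, 688 in GS and 97.4 in RCF. In these bulk libraries, fewer cells of a type and less RNA per cell cannot be told apart. Positions are those of the deposited table, in build Rnor_6.0.

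Summed over the 16 genes and divided by gene length, the family's level was highest in GS_diff2 and lowest in RCF. The sum was 119 ± 1.80 CPM per kilobase in GS_diff2, 86.2 ± 0.868 in GS_diff1, 53.1 ± 4.26 in GS and 38.3 ± 1.52 in RCF (SD, n = 3). The ranges of the 4 groups did not overlap. The make-up of this sum also differed. Car9 held 46.1 ± 1.13% of it in GS_diff2, 47.3 ± 1.19% in GS_diff1, 27.9 ± 0.742% in GS and 3.64 ± 0.552% in RCF. In RCF, the largest shares belonged to Car13, with 31.0 ± 1.04%, and Car11, with 27.8 ± 1.34%. The second largest share was that of the related gene Car8 in GS_diff2, at 16.4 ± 0.905%, and that of Car3 in GS_diff1, at 21.9 ± 1.06%. Membrane forms together had 64.6 ± 1.69 CPM per kilobase in GS_diff2, 45.1 ± 1.41 in GS_diff1, 21.2 ± 1.89 in GS and 8.67 ± 0.955 in RCF.

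**Figure D1:**
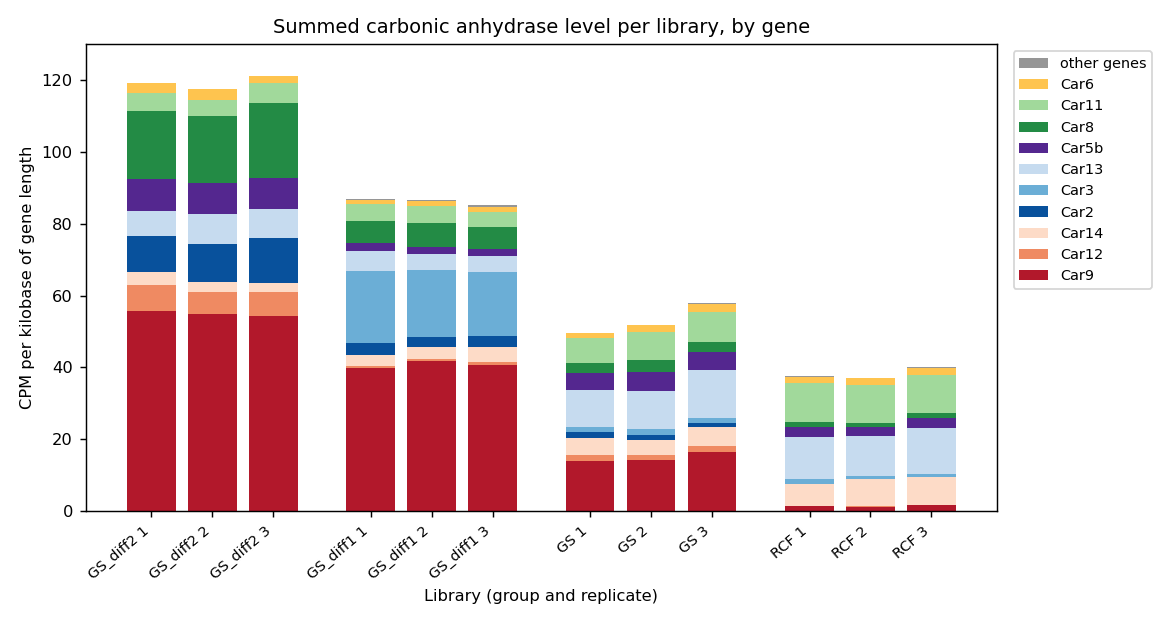
Stacked bars give the level of each carbonic anhydrase gene in CPM per kilobase of gene length in each of the 12 libraries, by group. The whole bar is near 119 in GS_diff2 and near 38.3 in RCF, and the Car9 segment makes up 46.1% of the bar in GS_diff2 and 3.64% in RCF.

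Car9, a transmembrane enzyme with its active site outside the cell and a textbook target of hypoxia-inducible factors, was the most abundant member per length in all 3 GS groups. Car9 (ENSRNOG00000017073, chromosome 5, 59008933 to 59015528, plus strand) stood at 115, 113 and 112 CPM in GS_diff2, 82.4, 86.2 and 84.1 in GS_diff1, 28.5, 29.1 and 34.3 in GS, and 3.04, 2.31 and 3.31 in RCF. All 4 groups were apart, in the order GS_diff2, GS_diff1, GS and RCF. GS was 10.5-fold above RCF (log2 3.39 ± 0.0968, SE). GS_diff1 was 2.76-fold above GS (log2 1.46 ± 0.0656), and GS_diff2 was 3.72-fold above GS (log2 1.89 ± 0.0651). The step between the media was the smallest, with GS_diff2 1.35-fold above GS_diff1 (log2 0.43 ± 0.0598).

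Car12, the other transmembrane enzyme of this set, acts with bicarbonate transport in many epithelia. Car12 (ENSRNOG00000017766, chromosome 8, 72405748 to 72460240, plus strand) stood at 18.4, 15.6 and 17.7 CPM in GS_diff2, 1.38, 1.56 and 2.09 in GS_diff1, 4.73, 3.93 and 4.06 in GS, and 0.211, 0.513 and 0.568 in RCF. Its order was GS_diff2, GS, GS_diff1 and RCF, with no overlap between groups. Unlike Car9, it was lower in GS_diff1 than in GS, by 2.54-fold (log2 -1.35 ± 0.222). In GS_diff2 it was 4.05-fold above GS (log2 2.02 ± 0.203) and 10.3-fold above GS_diff1 (log2 3.37 ± 0.221). GS stood 9.90-fold above RCF (log2 3.31 ± 0.262), where the 3 libraries held 5, 10 and 12 counts.

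Hypoxia-inducible factors bind short DNA sites with the core ACGTG or GCGTG, and GATA factors bind AGATAA or TGATAA. RefSeq promoters in build GRCr8, running from 250 bases before to 50 after the start of a gene, were matched for Car4, Car9, Car11 and Car12, and those of the membrane enzymes Car9 and Car12 are shown because both encode transmembrane enzymes and Car9 is a textbook hypoxia target. Capitals mark any of the 4 motifs on either strand, the lines are 5′ to 3′ on the gene's own strand, and Car9 lies at chr5:62558774-62559073 and Car12 at chr8:76169565-76169864, both on the plus strand.
Car9: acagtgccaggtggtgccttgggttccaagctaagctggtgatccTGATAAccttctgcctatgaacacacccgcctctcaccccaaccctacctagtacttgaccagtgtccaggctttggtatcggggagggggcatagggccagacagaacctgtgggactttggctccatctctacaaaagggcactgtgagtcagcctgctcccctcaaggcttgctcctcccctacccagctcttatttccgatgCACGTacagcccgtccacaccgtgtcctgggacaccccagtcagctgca
Car12: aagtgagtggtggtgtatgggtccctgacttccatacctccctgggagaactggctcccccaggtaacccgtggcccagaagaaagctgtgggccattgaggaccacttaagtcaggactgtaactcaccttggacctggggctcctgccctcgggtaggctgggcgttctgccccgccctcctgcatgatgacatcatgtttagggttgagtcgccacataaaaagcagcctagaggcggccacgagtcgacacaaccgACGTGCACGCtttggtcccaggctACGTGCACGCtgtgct
The Car9 window holds ACGTG once, on the minus strand 1 base past the start of the gene, and TGATAA once, 205 bases before it. The Car12 window holds ACGTG at 10 and 34 bases past the start and GCGTG on the minus strand at 15 and 39 bases, with no shared letters. Of 33469 RefSeq promoters of this length, 41.6% hold ACGTG or GCGTG and 18.9% hold AGATAA or TGATAA on either strand. A match is a description of letters: the Car4 window holds ACGTG once on each strand, and that gene was barely detected here.

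Car4, an enzyme held on the cell surface by a lipid anchor, had 26 counts in all 12 libraries together and did not pass the filter on low counts. Its counts were 1, 0 and 0 in GS_diff2, 1, 3 and 11 in GS_diff1, 0, 3 and 0 in GS, and 5, 0 and 2 in RCF. The groups overlapped, and no fold was taken, since most libraries lay at or under the floor of 3 counts. Car14, another transmembrane enzyme that is not among the 7, averaged 3.74 ± 0.847 CPM in GS_diff2, 4.28 ± 0.677 in GS_diff1, 5.83 ± 0.625 in GS and 8.78 ± 1.20 in RCF. Car14 fell in GS against RCF (log2 -0.59 ± 0.192, adjusted p = 0.00747) and in GS_diff2 against GS (log2 -0.64 ± 0.198, adjusted p = 0.0056). Its fall in GS_diff1 against GS (log2 -0.45 ± 0.197, adjusted p = 0.0479) was not called with library totals as the scaling (adjusted p = 0.0877), with no filter on low counts (adjusted p = 0.0757) or with a replicate block (adjusted p = 0.0557). It was also not called without GS replicate 1 (adjusted p = 0.0843), GS replicate 3 (0.163), GS_diff1 replicate 1 (0.156) or GS_diff1 replicate 2 (0.126). Car15, anchored like Car4 in the mouse, had 0 counts in every library.

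**Figure D2:**
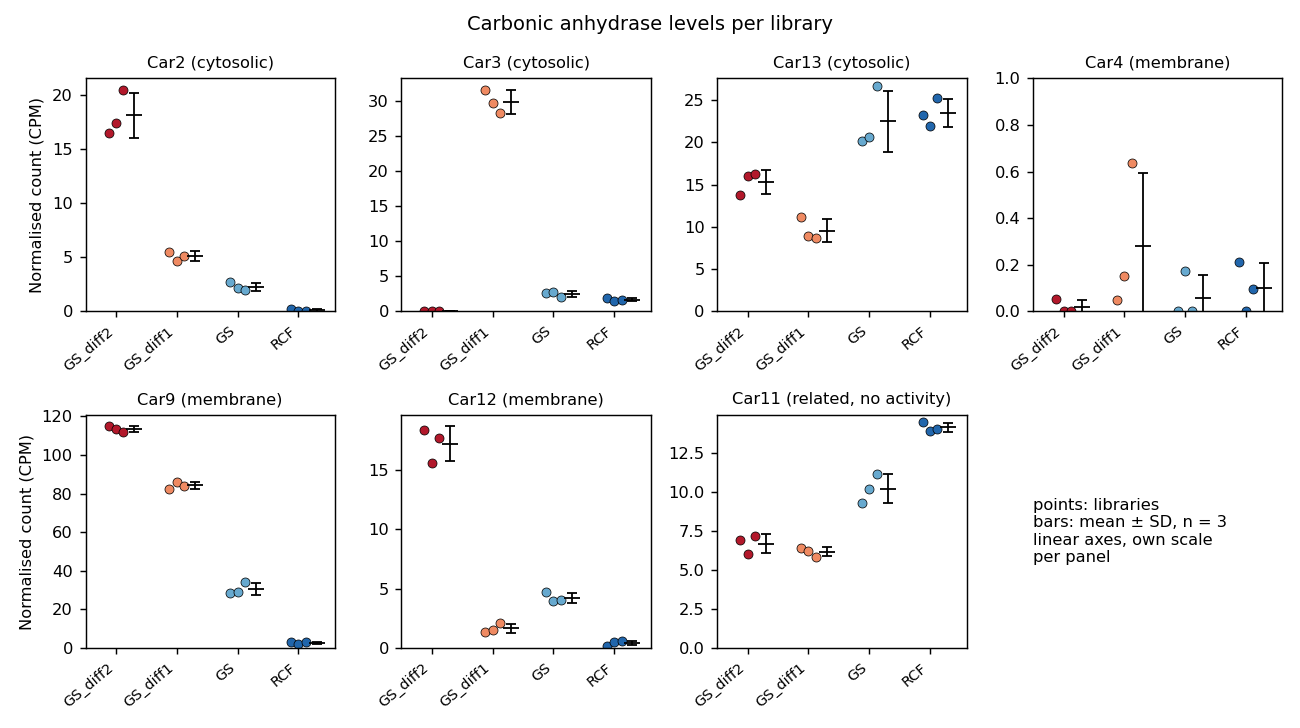
Points give normalised counts in CPM on linear axes, 1 panel for each of the 7 genes, and black bars give the mean and SD of 3 libraries per group. Car9 and Car2 have the group order GS_diff2, GS_diff1, GS and RCF, Car3 stands out in GS_diff1 at 29.9 CPM and is at 0 in GS_diff2, and Car11 is highest in RCF at 14.1 CPM.

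The cytosolic enzymes Car2, Car3 and Car13 lie beside Car1 in a cluster of 216.5 kb on chromosome 2, and each had a pattern of its own. No other gene of the table lies within the cluster. Car2 (ENSRNOG00000009629, 88097720 to 88113029, minus strand), a fast and widespread enzyme, stood at 16.5, 17.4 and 20.5 CPM in GS_diff2, 5.52, 4.64 and 5.16 in GS_diff1, 2.71, 2.14 and 2.00 in GS, and 0.253, 0.0513 and 0 in RCF. Its 4 groups were apart, in the same order as those of Car9. GS_diff2 was 3.55-fold above GS_diff1 (log2 1.83 ± 0.232) and 7.89-fold above GS (log2 2.98 ± 0.250), and GS_diff1 was 2.22-fold above GS (log2 1.15 ± 0.250). RCF held 7 Car2 counts in all, 6 of them in replicate 1. The fitted distance of GS over RCF, log2 4.33 ± 0.402, was therefore 6.21 without RCF replicate 1. Red cells carry much Car2, and their markers were read beside it. Of 11 red cell markers, 7 were in the table, with Hbb and Hbb-b1 at 0 in every library. They summed to 3.72 to 3.92 CPM per library in GS_diff2, 5.14 to 5.47 in GS_diff1, 5.84 to 7.40 in GS and 1.51 to 2.51 in RCF. Klf1 made up most of the sum in GS_diff1 and GS, at 1.79 CPM in GS_diff2, 4.21 in GS_diff1, 5.48 in GS and 0.624 in RCF. Alas2 had the same group order as Car2, at 1.52 CPM in GS_diff2, 0.416 in GS_diff1, 0.225 in GS and 0.050 in RCF. Other markers had other orders. Ahsp averaged 0.203 CPM in GS_diff2, 0.411 in GS_diff1, 0.917 in GS and 0.155 in RCF. Epb42 averaged 0.330 in GS_diff2, 0.202 in GS_diff1, 0.191 in GS and 1.27 in RCF. The part of red cells in the Car2 levels was not tested.

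Car3, a slow enzyme abundant in skeletal muscle, fat and liver, showed the sharpest contrast between the media. Car3 (ENSRNOG00000010079, 88126667 to 88135410, minus strand) had 0 counts in each GS_diff2 library and 31.7, 29.7 and 28.3 CPM in the GS_diff1 libraries. GS libraries stood at 2.62, 2.83 and 2.06 CPM, and RCF libraries at 1.90, 1.49 and 1.61 CPM. The order was GS_diff1, GS, RCF and GS_diff2, with no overlap between groups. GS_diff1 was 11.9-fold above GS (log2 3.57 ± 0.168), and GS was above RCF by log2 0.59 ± 0.182. With a floor of 3 counts per library, GS_diff2 was at least 202-fold lower than GS_diff1, at least 16.9-fold lower than GS and at least 11.3-fold lower than RCF. The floor covers counting error only. Markers of muscle and fat were read beside these values. All 9 skeletal muscle markers were in the table, with Myog at 0 throughout, and summed to 38.3 to 40.2 CPM in GS_diff2, 47.9 to 49.4 in GS_diff1, 18.0 to 19.4 in GS and 4.93 to 6.38 in RCF. Most of this sum outside RCF was skeletal actin, Acta1, at 34.8 CPM in GS_diff2, 42.6 in GS_diff1, 14.5 in GS and 1.32 in RCF. The muscle creatine kinase Ckm averaged at most 0.117 CPM. All 7 adipocyte markers were in the table, with Lep at 0 throughout, and summed to 3.13 to 3.59 CPM in GS_diff2, 1.71 to 2.72 in GS_diff1, 1.47 to 2.55 in GS and 5.95 to 7.43 in RCF. Most of this sum was Lipe, at 3.02 CPM in GS_diff2, 2.07 in GS_diff1, 1.41 in GS and 5.65 in RCF. Adipoq averaged at most 0.163 CPM. The part of muscle and fat cells in the Car3 levels was not tested.

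Car13 (ENSRNOG00000021323, 88282961 to 88314254, minus strand), a widely expressed cytosolic enzyme, was highest in GS and RCF, where Car2 was lowest. It stood at 13.7, 16.0 and 16.2 CPM in GS_diff2, 11.1, 8.87 and 8.69 in GS_diff1, 20.1, 20.7 and 26.7 in GS, and 23.2, 22.0 and 25.3 in RCF. GS and RCF overlapped (log2 -0.07 ± 0.112), and both lay above GS_diff2, which lay above GS_diff1. GS_diff1 was 2.34-fold below GS (log2 -1.23 ± 0.118), and GS_diff2 was 1.46-fold below GS (log2 -0.55 ± 0.114) and 1.60-fold above GS_diff1 (log2 0.68 ± 0.119). Car1, the red cell enzyme that lies between Car3 and Car13, had 2 counts in all 12 libraries. Car7, a cytosolic enzyme encoded elsewhere, had 14. Of the cluster's 3 expressed genes, Car2 was highest in GS_diff2, Car3 in GS_diff1, and Car13 in GS and RCF.

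**Figure D3:**
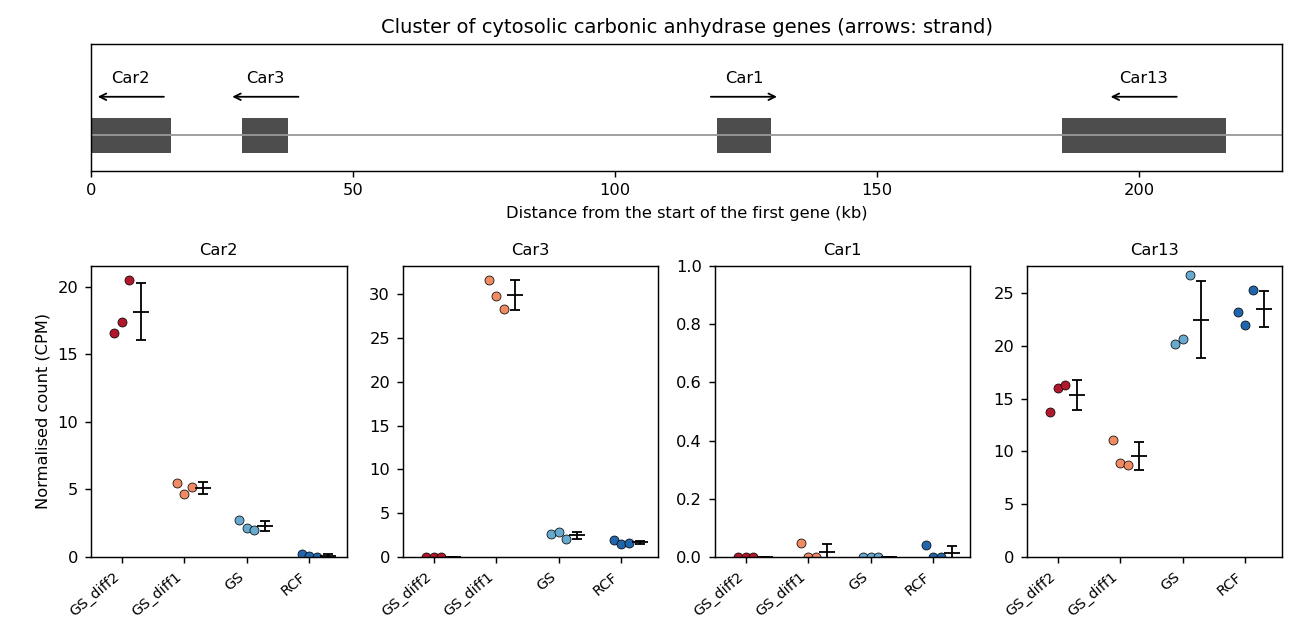
The map places 4 cytosolic carbonic anhydrase genes by distance in kb from the first, with arrows for strand, over a span of 216.5 kb, and 4 panels give CPM per library with mean and SD (n = 3). Car2, Car3 and Car13 each peak in different groups, while Car1 has at most 1 count in any library.

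Car11 belongs to the related proteins without activity, which together with Car10 are known to bind neurexins at synapses. Car11 (ENSRNOG00000021017, chromosome 1, 101682172 to 101687293, plus strand) stood at 6.90, 6.0 and 7.15 CPM in GS_diff2, 6.42, 6.20 and 5.85 in GS_diff1, 9.27, 10.2 and 11.1 in GS, and 14.5, 13.9 and 14.0 in RCF. Both media groups overlapped each other and lay below GS, and GS lay below RCF. GS was 1.39-fold below RCF (log2 -0.47 ± 0.134), GS_diff1 1.65-fold below GS (log2 -0.72 ± 0.139) and GS_diff2 1.52-fold below GS (log2 -0.61 ± 0.138). Between GS_diff2 and GS_diff1 the difference was log2 0.12 ± 0.140. Car10 had 0 counts in every library.

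Car8, the third related protein, binds the inositol trisphosphate receptor Itpr1, and its group order was the reverse of that of Car11 for RCF, GS and GS_diff2. It averaged 28.5 ± 1.99 CPM in GS_diff2, 9.05 ± 0.482 in GS_diff1, 4.40 ± 0.457 in GS and 1.86 ± 0.248 in RCF (SD, n = 3). Car8 rose in GS against RCF (log2 1.24 ± 0.153, adjusted p = 2.64e-08), in GS_diff1 against GS (log2 1.04 ± 0.137, adjusted p = 9.58e-08) and in GS_diff2 against GS (log2 2.69 ± 0.136, adjusted p = 5.07e-17). It was also higher in GS_diff2 than in GS_diff1 (log2 1.65 ± 0.127, adjusted p = 1.42e-12). Among the binding partners, Itpr1 averaged 31.6 CPM in GS_diff2, 53.8 in GS_diff1, 74.8 in GS and 95.7 in RCF. It fell in all 4 comparisons, with an adjusted p of 4.1e-17 in GS_diff2 against GS. Nrxn2 averaged 3.19 CPM in GS_diff2, 8.72 in GS_diff1, 18.3 in GS and 1.81 in RCF. Nrxn2 rose in GS against RCF (log2 3.33 ± 0.230, adjusted p = 6.25e-12) and fell in GS_diff2 against GS (log2 -2.51 ± 0.218, adjusted p = 4.7e-10).

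Car5b, a mitochondrial enzyme that supplies bicarbonate to carboxylases, was among the 4 tested carbonic anhydrase genes outside the 7. It averaged 24.7 ± 0.595 CPM in GS_diff2, 5.93 ± 0.367 in GS_diff1, 14.3 ± 1.12 in GS and 7.71 ± 0.573 in RCF. Car5b fell in GS_diff1 against GS (log2 -1.26 ± 0.117, adjusted p = 8.9e-11) and rose in GS_diff2 against GS (log2 0.79 ± 0.109, adjusted p = 2.05e-07). It rose in GS against RCF (log2 0.88 ± 0.114, adjusted p = 5.28e-08), and it was 4.15-fold higher in GS_diff2 than in GS_diff1 (adjusted p = 9.22e-16). Car5a, the other mitochondrial enzyme and mainly a liver gene, had 8 counts in all libraries. Car6, the secreted enzyme of saliva, averaged 3.53 ± 0.714 CPM in GS_diff2, 1.74 ± 0.173 in GS_diff1, 2.52 ± 0.585 in GS and 2.71 ± 0.297 in RCF. In the fit over all libraries, its difference between GS_diff2 and GS_diff1 passed the test (log2 1.02 ± 0.269, adjusted p = 0.00149).

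The 6 members with enough counts were read in each comparison beside all 14399 tested genes. In GS against RCF, 4 members were called higher and 1 lower at an adjusted p under 0.05, where 35.0% of all genes were called higher and 36.3% lower. In GS_diff1 against GS, 3 were called higher and 3 lower, beside 32.0% and 32.3% of all genes. In GS_diff2 against GS, 3 were called higher and 3 lower, beside 33.3% and 33.7%. In GS_diff2 against GS_diff1, 4 were called higher and 1 lower, beside 32.1% and 31.5%. Nothing is read from these counts, because the members were chosen by their levels in the same libraries. Both media comparisons share the GS libraries. Side by side, Car2 and Car9 were above GS in both media, and Car11 and Car13 were below GS in both. Car3 was above GS in GS_diff1 and below it in GS_diff2, and Car12 was the reverse. Directly between the media, Car2, Car9, Car12 and Car13 stood higher in GS_diff2, and Car3 stood higher in GS_diff1.

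**Figure D4:**
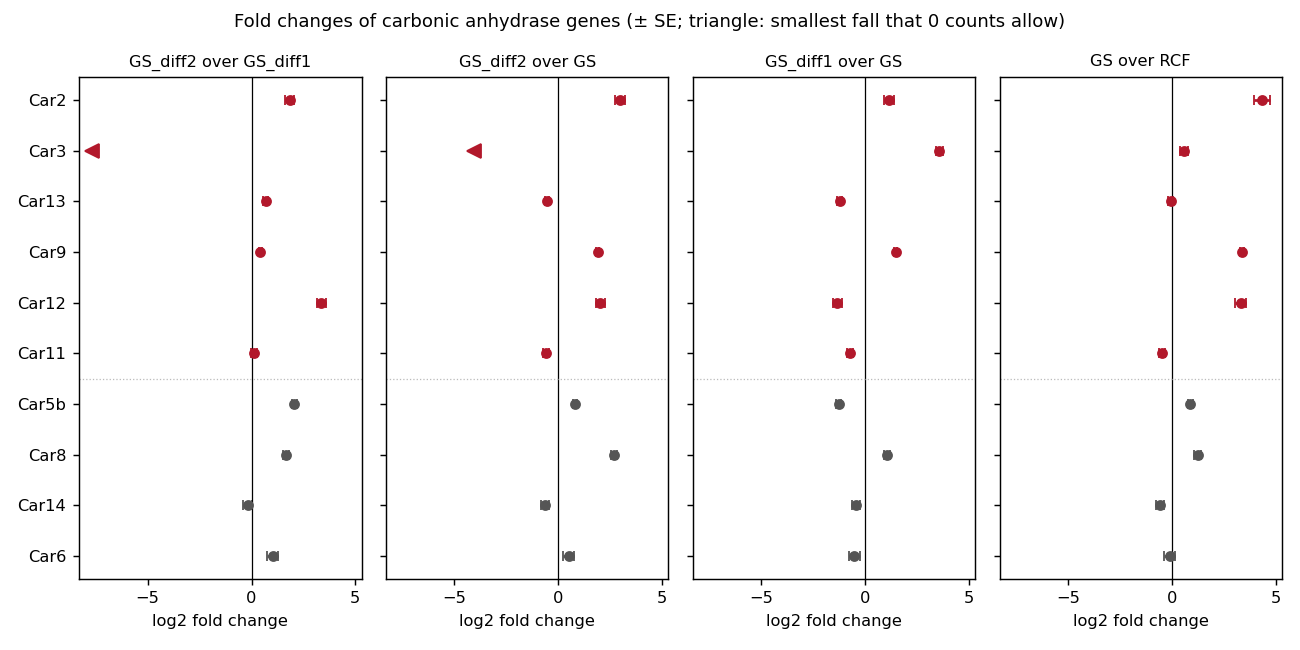
Log2 fold changes with standard errors for 10 carbonic anhydrase genes in 4 comparisons, from 1 fit over 12 libraries, with Car2, Car3, Car9, Car11, Car12 and Car13 in red and Car5b, Car6, Car8 and Car14 in grey. Triangles mark Car3 in GS_diff2 at its limit of at least 202-fold below GS_diff1 and at least 16.9-fold below GS, and Car12 is on opposite sides of 0 in GS_diff2 and GS_diff1 against GS.

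Partners of the enzymes were followed through further lists of genes from the same pathways. Over all tested genes, the median log2 fold change was -0.027 in GS against RCF, -0.0024 in GS_diff1 against GS, -0.00024 in GS_diff2 against GS and 0.0039 in GS_diff2 against GS_diff1. Each list's counts stand beside the shares of all tested genes that were called: 32.1% higher and 31.5% lower in GS_diff2 against GS_diff1, 33.3% and 33.7% in GS_diff2 against GS, 32.0% and 32.3% in GS_diff1 against GS, and 35.0% and 36.3% in GS against RCF. Of 16 bicarbonate transporter genes, 9 were tested. In GS_diff2 against GS, 5 rose and 1 fell (median log2 0.69), in GS_diff1 against GS 4 rose and 0 fell (median log2 0.32), and in GS against RCF 3 rose and 5 fell (median log2 -0.64). Between GS_diff2 and GS_diff1, 5 were higher and 2 lower (median log2 0.47). Slc4a7, a sodium bicarbonate cotransporter, averaged 84.5 CPM in GS_diff2, 48.0 in GS_diff1 and 35.7 in GS. It rose 2.36-fold in GS_diff2 against GS (adjusted p = 5.96e-16) and 1.34-fold in GS_diff1 against GS (adjusted p = 5.43e-06). Slc4a3, a chloride bicarbonate exchanger of heart, rose 2.72-fold in GS_diff2 against GS (adjusted p = 1.77e-14), and the cotransporter Slc4a4 fell 2.45-fold in GS against RCF (adjusted p = 3.18e-08).

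Of 19 proton and lactate transporter genes, 15 were tested. The test found that 7 rose and 4 fell in GS_diff2 against GS (median log2 0.042), in GS_diff1 against GS 8 rose and 5 fell (median log2 0.11), and in GS against RCF 8 rose and 4 fell (median log2 0.17). In the direct comparison of GS_diff2 with GS_diff1, 6 were higher and 5 lower (median log2 -0.17). Slc16a3, a lactate exporter, rose 2.07-fold in GS against RCF, at 62.4 CPM in GS and 30.1 in RCF (adjusted p = 6.64e-16). Slc16a7, another monocarboxylate carrier, was 4.01-fold higher in GS_diff2 than in GS_diff1 (adjusted p = 1.38e-11). The proton channel gene Hvcn1 fell 5.75-fold in GS against RCF (adjusted p = 1.55e-08) and averaged 0.0495 CPM in GS_diff1, against 1.71 in GS (adjusted p = 1.78e-09). Of 7 water and gas channel genes, 3 were tested. Of these, 2 rose and 0 fell in GS_diff2 against GS (median log2 1.98), in GS_diff1 against GS 0 rose and 2 fell (median log2 -0.68), and in GS against RCF 2 rose and 0 fell (median log2 1.57). All 3 were higher in GS_diff2 than in GS_diff1 (median log2 2.66), but only Aqp1 averaged at least 1 CPM in the higher group. Aqp1, a water channel that also passes carbon dioxide, averaged 22.2 CPM in GS_diff2, 3.48 in GS_diff1, 5.58 in GS and 1.77 in RCF. It was 6.34-fold higher in GS_diff2 than in GS_diff1 (adjusted p = 1.11e-13).

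Enzymes that use bicarbonate numbered 9, of which 8 were tested. In GS_diff2 against GS, 1 rose and 1 fell (median log2 -0.029), in GS_diff1 against GS 1 rose and 1 fell (median log2 -0.12), and in GS against RCF 1 rose and 4 fell (median log2 -0.37). Compared with GS_diff1, GS_diff2 had 2 higher and 1 lower (median log2 0.26). Acaca, the acetyl-CoA carboxylase that starts fatty acid synthesis, fell 1.60-fold in GS against RCF (adjusted p = 7.64e-11) and rose 1.45-fold in GS_diff1 against GS (adjusted p = 1.43e-08). The other carbonic anhydrases outside the 7 gave 2 higher and 1 lower of 4 tested in GS_diff2 against GS (median log2 0.64), 1 and 2 in GS_diff1 against GS (median log2 -0.49), and 2 and 1 in GS against RCF (median log2 0.39). Of the 4, 3 were higher and 0 lower in GS_diff2 than in GS_diff1 (median log2 1.34).

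Genes of the hypoxia response were read because Car9 is among its best known targets. Of 28 listed targets other than Car9, all were tested. Of these, 21 rose and 4 fell in GS_diff2 against GS (median log2 0.49), beside 33.3% and 33.7% of all genes. In GS_diff1 against GS, 12 rose and 11 fell (median log2 0.059), beside 32.0% and 32.3%, and in GS against RCF 9 rose and 13 fell (median log2 -0.11), beside 35.0% and 36.3%. In GS_diff2 compared with GS_diff1, 20 were higher and 5 lower (median log2 0.41), beside 32.1% and 31.5%. Egln3, an oxygen-sensing prolyl hydroxylase, averaged 248 CPM in GS_diff2 and 90.3 in GS_diff1, and was 2.75-fold higher in GS_diff2 (adjusted p = 8.03e-24). The peptide hormone gene Adm averaged 181 CPM in GS_diff2, 35.7 in GS_diff1 and 135 in GS, a fall of 3.76-fold in GS_diff1 against GS (adjusted p = 2.09e-18). The growth factor Vegfa fell 2.44-fold in GS_diff1 against GS (adjusted p = 1.45e-24), and the secreted protein gene Stc2 fell 9.31-fold (adjusted p = 1.73e-18). Both were also among the 4 targets that fell in GS_diff2 against GS, where 21 rose. Vegfa fell 1.50-fold there (adjusted p = 2.2e-16) and Stc2 8.47-fold (adjusted p = 2.34e-18). Pfkfb4, a regulator of glycolysis, rose 7.93-fold in GS_diff1 against GS (log2 2.99 ± 0.572, adjusted p = 0.00074). This value is uncertain because the GS_diff1 libraries scattered, at 7.09, 10.9 and 2.90 CPM, and because its symbol has 2 rows in the table. In GS against RCF, Egln3 rose 10.1-fold (adjusted p = 1.71e-30), the stress gene Ndrg1 rose 5.67-fold (adjusted p = 9.57e-27) and Stc2 rose 1.94-fold (adjusted p = 2.27e-09). Bnip3, a mitophagy receptor, fell 1.83-fold in that comparison (adjusted p = 3.8e-16).

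Of 9 genes for the hypoxia factors and their regulators, 8 were in the table and 7 were tested. The test found that 1 rose and 5 fell in GS_diff2 against GS (median log2 -0.64), in GS_diff1 against GS 1 rose and 5 fell (median log2 -0.47), and in GS against RCF 4 rose and 2 fell (median log2 0.15). Compared with GS_diff1, GS_diff2 had 3 higher and 2 lower (median log2 0.13). Epas1, the second of the oxygen-regulated subunits, averaged 542 CPM in GS_diff2, 479 in GS_diff1, 1133 in GS and 151 in RCF. It rose 7.48-fold in GS against RCF (adjusted p = 7.47e-35) and fell 2.09-fold in GS_diff2 against GS (adjusted p = 2.55e-24). Hif1a averaged 129 CPM in GS_diff2, 162 in GS_diff1 and 223 in GS, and fell in GS_diff2 against GS (log2 -0.79 ± 0.0400, adjusted p = 4.74e-17). These factors are controlled mainly at the protein level, which counts of RNA do not show.

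**Figure D5:**
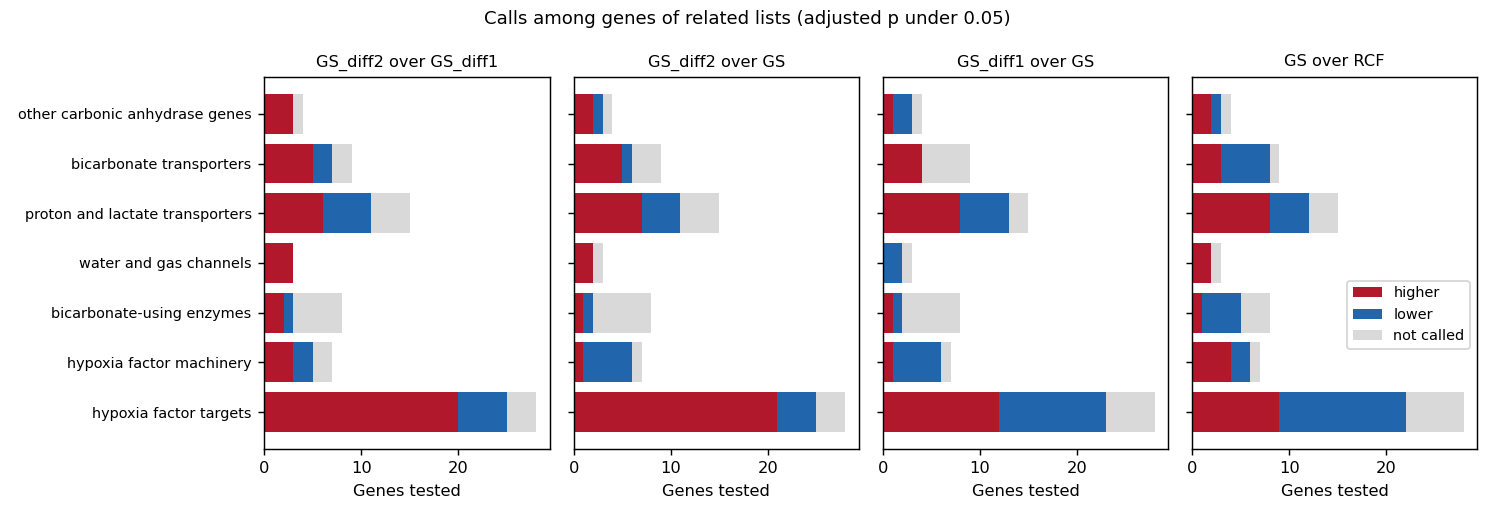
Bars count the tested genes of 7 lists that were called higher (red), called lower (blue) or not called (grey) at an adjusted p under 0.05, with 1 panel per comparison. Hypoxia factor targets have 21 of 28 called higher and 4 lower in GS_diff2 over GS, beside 33.3% and 33.7% of all tested genes. In GS over RCF, 9 of 28 are called higher and 13 lower, beside 35.0% and 36.3%.

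Markers of 3 further cell types were summed per library. Of 9 endothelial markers, 8 were in the table, with Emcn at 0 throughout, and summed to 17.9 to 19.4 CPM in GS_diff2, 23.9 to 29.1 in GS_diff1, 15.5 to 17.5 in GS and 14.8 to 17.3 in RCF. Most of this sum was Tek, at 13.6 CPM in GS_diff2, 16.1 in GS_diff1, 12.2 in GS and 13.0 in RCF. Erg averaged 0.322 CPM in GS_diff2, 6.07 in GS_diff1, 1.52 in GS and 0 in RCF. Vwf had another order, at 3.65 CPM in GS_diff2, 1.55 in GS_diff1, 1.37 in GS and 0.892 in RCF. Tie1 averaged 0.711 CPM in GS_diff2, 1.78 in GS_diff1, 0.649 in GS and 0.869 in RCF. Kdr, Cdh5 and Esam averaged at most 0.681 CPM in any group. All 10 macrophage markers were in the table, with Cd163 at 0 throughout. They summed to 3.99 to 4.60 CPM in GS_diff2, 3.38 to 3.77 in GS_diff1, 1.35 to 2.08 in GS and 40.9 to 42.7 in RCF. All 8 cardiomyocyte markers were in the table, with Myl2 at 0 throughout, and summed to 36.5 to 38.7 CPM in GS_diff2, 13.8 to 16.6 in GS_diff1, 4.27 to 4.45 in GS and 15.9 to 17.0 in RCF. Tnnt2 was the largest part of this sum in each group, at 34.1 CPM in GS_diff2, 7.67 in GS_diff1, 1.96 in GS and 15.1 in RCF. Pln had another order, at 0.678 CPM in GS_diff2, 4.84 in GS_diff1, 1.38 in GS and 0.182 in RCF, and Actn2 averaged 0.105 in GS_diff2, 1.48 in GS_diff1, 0.408 in GS and 0.351 in RCF. The part of these cells in the carbonic anhydrase levels was not tested.

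Genes with profiles nearest to each member were found by the root mean square difference in log2 level over 12 libraries, each gene centred on its own mean, among 12892 tested genes with a mean of at least 1 CPM. For Car9 these were Acta1, at 0.38, Tgm1, at 0.42, and Tns4, at 0.42, set against a spread of 2.09 in Car9 itself. For Car12, with a spread of 1.98, they were the cyclin gene Ccnd1, at 0.46, Fosl1, at 0.47, and Epha10, at 0.56. For Car11, with a spread of 0.49, they were Atp6ap2, at 0.075, Retsat, at 0.098, and Rragc, at 0.10. For Car13, with a spread of 0.54, the nearest was Tmem192, at 0.11, followed by AABR07029742.1 and Aga, both at 0.16. Car2 had no profile as near, with Gng4 at 0.78, SNORD113 at 0.88 and Cacna1i at 0.89, against a spread of 2.99. Its RCF libraries held 6, 1 and 0 counts, with an SD of 1.77 in log2 level. Scatter of such low counts therefore enters these distances, and they do not show that the Car2 profile is unlike others. Car3 stood furthest from any other gene, with Limch1 at 1.38 and Acta2 at 1.50 among its nearest, against a spread of 3.69. With 0 counts in GS_diff2, its spread and distances also depend on the 0.5 counts added before taking logs.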

How the data were processed

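Per the labels' protocols, total RNA came from the RNeasy Mini kit and its libraries from NuGEN's Ovation RNA-seq System v2. The authors deposited whole-number read counts per gene without normalization, with gene lengths and positions. The submitters' processing notes name Bowtie 0.12.2 and the builds Rnor_6.0 and mm8, without roles. Which program counted reads, on which annotation and with what strand setting is not given in the sources used here. No member overlaps another gene of the table, and reads shared between similar family members were not examined.

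Counts were fitted in edgeR 4.0.16 (R 4.3.3) with TMM scaling, filterByExpr (14399 genes kept), a term per group over all 12 libraries, robust quasi-likelihood tests and Benjamini-Hochberg adjustment over all tested genes. CPM use the same scaling, and standard errors come from the F statistic. The step was tested on simulated data. Library pairs within groups differed by 4.44 to 7.57 times the chi-square per degree of freedom that sampling noise gives. Alternatives were library totals, no filter, DESeq2 1.42.0, limma-voom (limma 3.58.1), only both groups compared, a replicate block, and each library left out.

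The members and the gene lists were chosen with earlier results of these data known. Named from each list and comparison were called genes with at least 1 CPM in the higher group, from the 4 largest changes, and the 3 nearest profiles of each member. Results that need an item withheld from the text are not reported here. Of 2 table rows named Pfkfb4, the one with more counts was used. RefSeq tables of the GRCr8 assembly gave promoters and 1 older symbol.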

Additional observations from a re-analysis of the deposited data

Results flagged for a closer look

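Car3, Car12 and Car5b stood on opposite sides of GS in the 2 media, with every library of each medium outside the range of the GS libraries. Car3 averaged 0 CPM in GS_diff2, 29.9 in GS_diff1 and 2.50 in GS. Car12 averaged 17.2 CPM in GS_diff2, 1.68 in GS_diff1 and 4.24 in GS. Car5b averaged 24.7 CPM in GS_diff2, 5.93 in GS_diff1 and 14.3 in GS. Of all tested genes, 33.3% were called higher and 33.7% lower in GS_diff2 against GS. In GS_diff1 against GS these shares were 32.0% and 32.3%. The share of all genes on opposite sides of GS was not counted, so nothing is read from the number of such carbonic anhydrase genes. Both media effects share the GS libraries, so the difference between them is the comparison of GS_diff2 with GS_diff1 given above. For Car3 and Car12, which were chosen by such levels, it is given as a description and without a p-value.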

How the results depend on the processing

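No called difference of a carbonic anhydrase or named list gene changed direction under any alternative run. Car13 and Car6, not called in GS against RCF, changed sign there without GS replicate 1. In all 4 comparisons, the counts of called genes stayed within 1.5 times, but library totals shifted their split: 4383 higher and 6024 lower in GS against RCF (5039 and 5223 with TMM), 5100 and 4165 in GS_diff1 against GS (4603 and 4653), 5456 and 4156 in GS_diff2 against GS (4797 and 4854), and 4803 and 4347 in GS_diff2 against GS_diff1 (4628 and 4539). Over all alternatives, 9839 to 10678 genes were called in GS against RCF, 8715 to 9320 in GS_diff1 against GS, 9112 to 9819 in GS_diff2 against GS and 8631 to 9331 in GS_diff2 against GS_diff1. With the replicate block, 10166, 9135, 9538 and 9054 genes were called in these comparisons, in that order. Same-numbered libraries deviated together weakly (correlations of -0.11 to 0.13, 2 of 12 over 0.1), and nothing in the labels pairs them. For the members, 282 values moved by less than the replicate spread and 6 by more: Car11 with library totals (log2 -0.57 in GS against RCF), Car2 without RCF replicate 1, and Car3 in GS_diff2, whose fitted fold depends on the tool because all its libraries are at 0. For the named list genes, 1050 values kept their side of the threshold and 18 did not, all of them in Slc4a11, Slc26a6, Slc26a9, Mccc1 and Pccb. For the other carbonic anhydrases, 183 kept it, 7 lost it, all for Car14 in GS_diff1 against GS, and 2 gained it, both for Car6. Depth limits Car4, Car1, Car5a, Car7 and, in RCF, Car2.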
